A study of Arabidopsis thaliana with 16 samples.

Results

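The EIN2S645A line of Arabidopsis thaliana, an ethylene signalling line in the ein3-1 eil1-1 double mutant, was compared with Col in RNA-seq of whole seedlings. The genes described are all those in the authors' deposited table for this comparison, except 84 chloroplast and mitochondrial genes and the 36 genes of the mitochondrial insertion on chromosome 2 (AT2G07671 to AT2G07789). This left 7237 of 7357 genes, out of 10057 genes listed in at least 1 of the 3 deposited RNA tables. The table holds only genes that the authors called, by a fold of 2 or more, 1 FPKM or more and a q-value under 0.05. FPKM is fragments per kilobase of transcript, scaled to the mapped fragments of the library. Genes below those limits are not in it, so a gene that is absent is called "not listed" here and its level is not known.

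Ethylene is a gaseous hormone that shapes dark-grown seedlings. In its absence the receptors keep the kinase CTR1 active, and CTR1 phosphorylates EIN2, a membrane protein of the endoplasmic reticulum. When ethylene binds the receptors, EIN2 is dephosphorylated and cleaved, its carboxyl-terminal part reaches the nucleus, and the transcription factors EIN3 and EIL1 accumulate and drive the ethylene response. Serine S645 is one of the known CTR1 phosphorylation sites of EIN2, and its exchange for alanine, S645A, favours release of the carboxyl-terminal part.

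The line carries EIN2S645A in ein3-1 eil1-1, which lacks intact EIN3 and EIL1, and was sampled as 2 libraries of 3-day-old seedlings grown in the dark at 24 °C and treated for 4 h with air. Its name is written EIN2S645A in the sample titles, differently in the genotype label and with EIN2C in the series design, so whether full-length EIN2 or only its carboxyl-terminal part carries the change is not settled by the labels. The promoter of the transgene and the number of independent lines were not given in the sources used here. The 2 other RNA lines, EIN2C-EIN3DB and EIN2C-EIN3DBK245N (by their names, the EIN2 carboxyl-terminal part joined to the DNA binding domain of EIN3, with and without a substitution), were also in ein3-1 eil1-1 and in air, with 2 libraries each. Col is the wild type. Its treatment and origin were not given in the sources used here, and the series type names third-party reanalysis among its data types. No RNA of untransformed ein3-1 eil1-1 or of an unsubstituted EIN2 line was analysed here, so the substitution, the transgene, the double mutation and any difference in growth or library preparation cannot be told apart in a fold over Col.

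Each line has 1 value per gene with its replicates pooled by the authors. No replicate spread, read depth or test between libraries could therefore be given, and each call rests on the authors' q-value alone. Col levels are those implied by the line level and the authors' fold. In bulk seedlings fewer cells of a type and less RNA per cell cannot be told apart. Of the 7237 genes, 7219 (99.8%) were found in the table of gene names.

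Of the 7237 genes, 3318 were higher in EIN2S645A than in Col and 3919 were lower. Counted over protein-coding genes, 11.8% of the 27389 annotated nuclear genes were listed as higher (3227 genes) and 13.9% as lower (3811 genes). The median log2 fold was 1.88 among higher genes and -1.65 among lower genes. At a fold of at least 4 there were 1474 higher and 1214 lower genes, which for protein-coding genes is 5.16% and 4.19% of those annotated. A fold of at least 16 was reached by 212 higher and 174 lower genes. The authors' deposited table gives 4016 genes the smallest q-value it holds, 0.000224, and a smallest p-value of 5e-05.

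Higher and lower genes had similar implied levels in Col. The median implied Col level was 15.5 FPKM for higher genes and 14.0 FPKM for lower genes. The first counts the 92 genes listed at 0 in Col, and the second leaves out the 141 genes listed at 0 in the line, which have no implied level. In the line the medians were 60.5 FPKM and 4.17 FPKM. The median log2 fold of all 7237 genes was -1.10, and a median over called genes only is not that of all expressed genes, which is not known here. With the folds centred on it and a fold of at least 2 kept, 3318 genes were higher and 1054 lower, so higher genes made up 75.9% of calls in place of 45.8%. Centring raised every fold, and genes under a fold of 2 are not in the table. All 3318 higher genes therefore had to stay, and only lower genes could drop out. Counts after centring, here and below, show which lower genes remain and are no check on the higher ones. Higher genes made up between 44% (chromosome 1) and 48% (chromosome 2) of those on each chromosome.

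**Figure D1:**
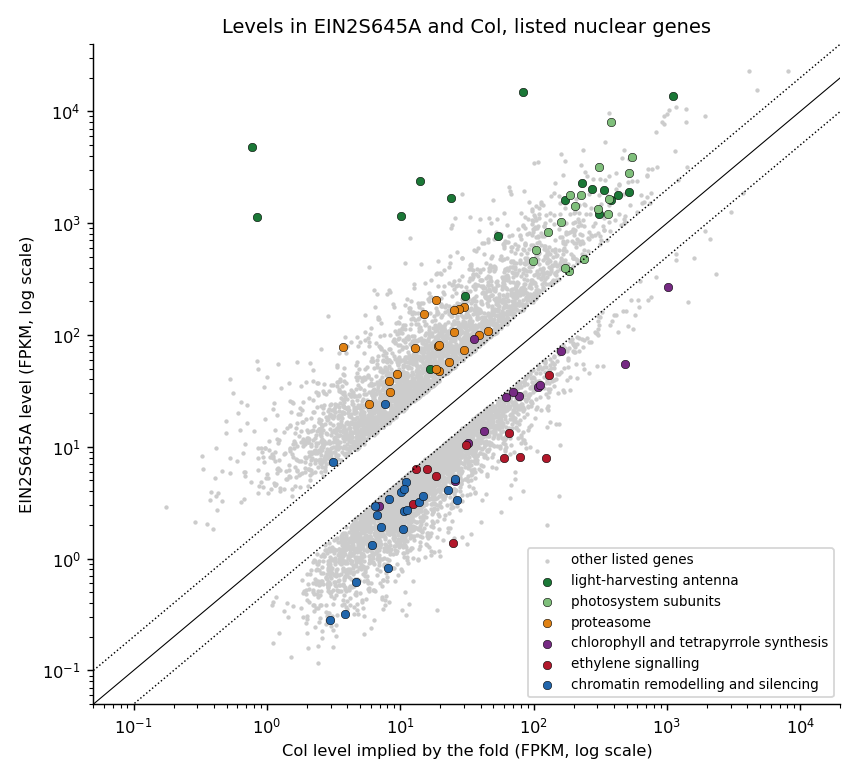
Level in EIN2S645A (vertical axis, FPKM, log scale) against the Col level implied by the authors' fold (horizontal axis, FPKM, log scale). Each point is a listed nuclear gene with a finite fold, the solid line marks equal levels and the dotted lines a fold of 2. Light-harvesting, photosystem and proteasome genes lie above the line, and ethylene signalling genes, with all but 1 of the chlorophyll synthesis genes and all but 2 of the chromatin genes, lie below it.

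Ethylene signalling genes that were listed were lower, from receptors to transcription factors. Of 16 signalling genes, 11 were lower (68.8%), 0 were higher and 5, EIN2, ETR2, EBF1, RTE1 and ETP2, were not listed. The lower share stands beside 13.9% of all annotated genes, and the median log2 fold of the listed members was -2.03. Both mutated genes were among them. EIN3 (AT3G20770, chromosome 3, 7260432 to 7263352, TAIR10) had 7.88 FPKM in the line by the authors' deposited table against an implied 124 FPKM in Col, and EIL1 (AT2G27050, chromosome 2, 11545753 to 11548293, TAIR10) had 7.89 against 60.2 FPKM. A gene-level value does not show whether the remaining RNA of these mutants is intact.

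At the top of the pathway the receptor gene ERS1 had 8.10 FPKM in the line against 79.0 FPKM in Col and the receptor gene ETR1 had 5.44 FPKM in the line against 18.5 FPKM in Col, with line values from the authors' deposited table. Both were lower than in Col. CTR1, the kinase that acts on EIN2, had 10.3 FPKM in the line against 30.9 FPKM in Col, a log2 fold of -1.59 in the authors' deposited table. XRN4, an exoribonuclease that lowers EBF mRNA, stood at -1.05 and ETP1, an F-box protein that targets EIN2, at -1.30, both log2 folds of the authors' deposited table. Downstream, 8 of 15 EIN3 target genes were lower and 0 were higher, with a median log2 fold of -2.92. After centring, 5 signalling genes and 7 EIN3 targets were lower. This list shares EBF2, ERS1 and ERS2 with the signalling list and was drawn up with earlier results of these data known. The phytochrome-interacting factor gene PIF3 had 12.7 FPKM in the line against 55.6 FPKM in Col (line value from the authors' deposited table), lower like the hook gene HLS1, at 3.62 against 21.1 FPKM.

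Of 15 ethylene synthesis genes, 5 were lower and 1 was higher, and after centring 3 and 1. ACO5 encodes an ACC oxidase, which makes ethylene from ACC. ACO5 had 39.8 FPKM in the line against 177 FPKM in Col, with the line value from the authors' deposited table. Among ACC synthase genes ACS5 stood at a log2 fold of -2.30 and ACS12 at -2.77, whereas ACS8 was higher at 3.28 with 8.97 FPKM in the authors' deposited table. ACS8 was not listed in EIN2C-EIN3DB and stood at a log2 fold of 2.99 in EIN2C-EIN3DBK245N in the authors' deposited tables. Of 27 genes of the ethylene response factor list, 4 were higher (14.8%, near the 11.8% of all annotated genes) and 1 was lower. That 1, ERF72, had 15.0 FPKM in the line against 126 FPKM in Col (line value from the authors' deposited table), and ERF4, which encodes a repressor of ethylene-responsive genes, was higher at 279.7 against 38.0 FPKM.

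Genes of the photosynthetic antenna had the largest share of higher members among the lists examined. Of 19 genes for light-harvesting proteins, which bind chlorophyll and pass energy to the photosystems, 18 were higher (94.7%, against 11.8% of all annotated genes) and LHCB4.3 was not listed. Their median log2 fold was 3.27, and 15 of them reached a fold of 4. LHB1B1 (AT2G34430, chromosome 2, 14524756 to 14525763, TAIR10) had 4777 FPKM in the line against 0.778 FPKM in Col, and LHCB2.2 (AT2G05070, chromosome 2, 1799234 to 1800392, TAIR10) had 1162 FPKM in the line against 10.1 FPKM in Col, with line values from the authors' deposited table. LHCB1.3, a near-identical relative that can share reads with the other LHCB1 copies, was already at 1101 FPKM in Col and stood at 13811 FPKM in the line by the authors' deposited table. Members with sequences of their own were higher too. LHCA1, of the photosystem I antenna, had 766 FPKM in the line against 53.7 FPKM in Col, and LHCB5, an inner photosystem II antenna gene, had 1206 FPKM in the line against 311 FPKM in Col, with line values from the authors' deposited table. The smallest increase of the list was that of LHCA5, at a log2 fold of 1.58 in the authors' deposited table.

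Nuclear genes for subunits of the photosystems moved the same way, with a smaller median fold. Chloroplast genes were left out, so subunits encoded there are not described. Of 25 nuclear genes for photosystem subunits, 17 were higher, 0 were lower and 8 were not listed, with a median log2 fold of 2.47. PSBR (AT1G79040, chromosome 1, 29736016 to 29740179, TAIR10), of photosystem II, had 7997 FPKM in the line against 379 FPKM in Col, a log2 fold of 4.40 in the authors' deposited table. PSAL and PSAO, both of photosystem I, had log2 folds of 3.37 and 3.25 in the authors' deposited table. In the other lines the count for this list was 1 higher and 2 lower in EIN2C-EIN3DB, and 4 higher and 1 lower in EIN2C-EIN3DBK245N. The tables all name Col as the other group, but whether the same Col libraries were used in each was not given in the sources used here. Counts of listed genes also depend on how many genes each table holds. The antenna list had 12 higher in EIN2C-EIN3DB and 15 in EIN2C-EIN3DBK245N, and 0 lower in both. Of all annotated genes, EIN2C-EIN3DB had 9.85% higher and 9.72% lower, and EIN2C-EIN3DBK245N had 6.33% and 6.35%.

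Genes that make chlorophyll went the other way. Of 22 genes of chlorophyll and tetrapyrrole synthesis, 12 were lower and 1 was higher, with a median log2 fold of -1.59. The protochlorophyllide oxidoreductases, which carry out the light-dependent step of chlorophyll synthesis, were all lower. PORA (AT5G54190, chromosome 5, 21990912 to 21992812, TAIR10) had 54.6 FPKM in the line against 487 FPKM in Col, PORB had 268 FPKM in the line against 1011 FPKM in Col and PORC had 13.8 FPKM in the line against 42.5 FPKM in Col, with line values from the authors' deposited table. HEMA1, at the first committed step, stood at a log2 fold of -1.45, and the magnesium chelatase genes CHLH, CHLI1 and CHLI2 at -1.65, -1.65 and -2.37, by the authors' deposited table. The exception was HEMB1, at 92.4 against 35.5 FPKM in the authors' deposited table. After centring, PORA and CHLI2 remained the 2 lower members. Of 12 Calvin cycle genes 2 were lower (16.7%, near the 13.9% of all annotated genes) and 10 were not listed, small subunits of Rubisco among them. The lower ones were PRK, at a log2 fold of -2.50, and SBPASE, at -1.28 in the authors' deposited table.

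Of 29 light signalling genes, 15 were lower (51.7%, against 13.9% of all annotated genes) and 4 higher (13.8%, near the 11.8% of all annotated genes). After centring, 7 were lower and 4 higher. PHYA, the photoreceptor of dark-grown seedlings, had 99.3 FPKM in the line against 304 FPKM in Col, and HY5, the transcription factor of light-driven development, had 2.93 FPKM in the line against 26.8 FPKM in Col, with line values from the authors' deposited table. PHYC, PHYD and PHYE stood at a log2 fold of -3.16, -1.89 and -2.55, the cryptochrome gene CRY2 at -1.76 and the phototropin gene PHOT2 at -2.22 in the authors' deposited table. The repressors SPA2, SPA3, SPA4 and COP1 lay between log2 -2.33 and -1.10 in the authors' deposited table. Higher were the growth-promoting factors PIF4, at 22.1 against 8.48 FPKM, and PIF5, at 23.2 against 11.0 FPKM, with PAR1 and the early light-induced gene ELIP1, by the authors' deposited table. The labels give darkness until harvest. The levels of antenna, photoreceptor and chlorophyll synthesis genes are given here beside each other, and a part of light exposure in them was not tested.

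Among 18 clock genes 8 were lower (44.4%, against 13.9% of all annotated genes) and 3 higher (16.7%, against 11.8%). The morning gene LHY had 1.84 FPKM in the line against 14.1 FPKM in Col and the morning gene CCA1 had 5.28 FPKM in the line against 19.3 FPKM in Col, with line values from the authors' deposited table. The evening genes TOC1 and ELF3 were lower as well, at a log2 fold of -2.46 and -2.90 in the authors' deposited table, and the evening gene ELF4 was higher at 1.42. GI, at a log2 fold of -1.05 here, stood at 1.16 in EIN2C-EIN3DBK245N in the authors' deposited tables. The hour of harvest was not given in the sources used here, and its part was not tested. After centring, 3 clock genes were higher and 3 lower.

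**Figure D2:**
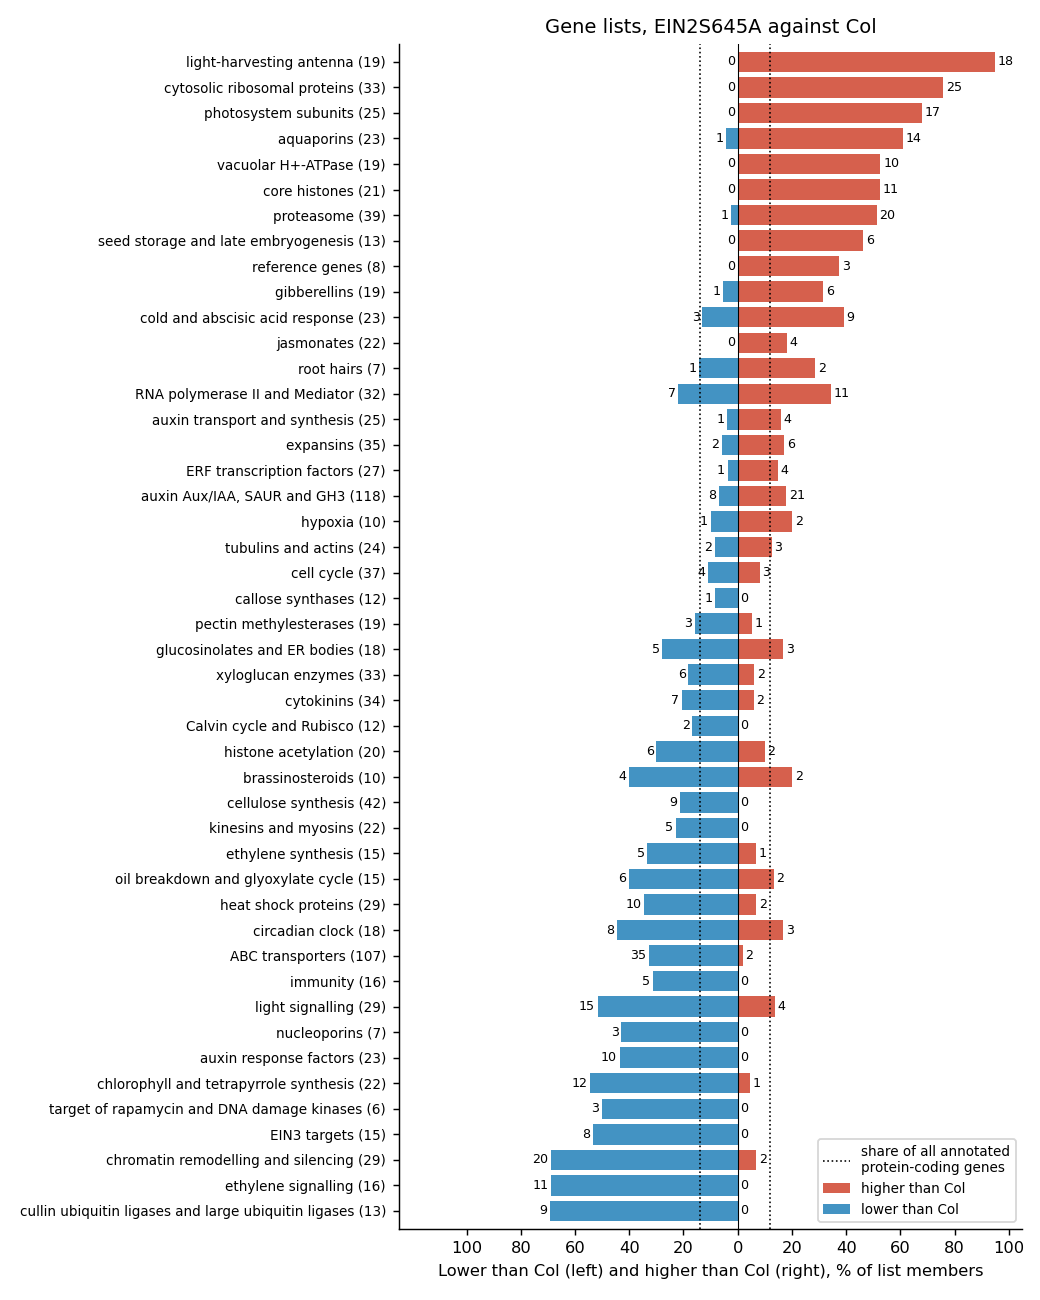
Share of each gene list that the authors' table gives as higher (right, red) or lower (left, blue) in EIN2S645A than in Col, in percent of the list's annotated members. Numbers beside bars are gene counts, numbers in brackets are list sizes, and dotted lines mark the shares over all annotated nuclear protein-coding genes, 11.8% higher and 13.9% lower. Antenna, ribosomal and photosystem genes form the top of the plot, and large ubiquitin ligases, ethylene signalling and chromatin genes the bottom.

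The direction of a gene's fold followed the length of its locus. Of 769 listed protein-coding genes with loci under 1000 bp, 85.7% were higher. The share was 78.5% from 1000 to 1499 bp, 64.9% from 1500 to 1999 bp and 38.8% from 2000 to 2999 bp. From 3000 to 3999 bp 28.9% were higher, from 4000 to 5999 bp 19.4%, and of 549 genes at 6000 bp or more 7.1% (39 genes). The median locus was 1647 bp (quartiles 1095.5 and 2476) among higher genes and 3195 bp (quartiles 2285.5 and 4683) among lower genes. A locus in the table can span overlapping neighbours, and 162 genes shared theirs with another listed gene. In EIN2C-EIN3DB the share of higher genes ran from 67.6% under 1000 bp to 23.6% at 6000 bp or more. In EIN2C-EIN3DBK245N it ran from 52.1% to 47.6%. Library preparation, RNA length and read mapping could not be separated from genotype in these tables, and their part was not tested. All 84 organelle genes left out were listed at 0 in the line, and all 36 insertion genes left out were higher in it. The relation of these to the length trend was not tested. The counts of the lists that follow are set beside the share of higher genes among all listed genes in a length band. The band is that of the median locus of the list's listed members. Members that are not listed do not enter that median, so the band itself depends on which genes were called. For lists already described, the share of higher genes in the band was 64.9% for antenna genes and 78.5% for photosystem subunits and ethylene response factors. It was 38.8% for chlorophyll synthesis, Calvin cycle, ethylene synthesis and EIN3 target genes, and 28.9% for ethylene signalling, light signalling and clock genes.

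**Figure D3:**
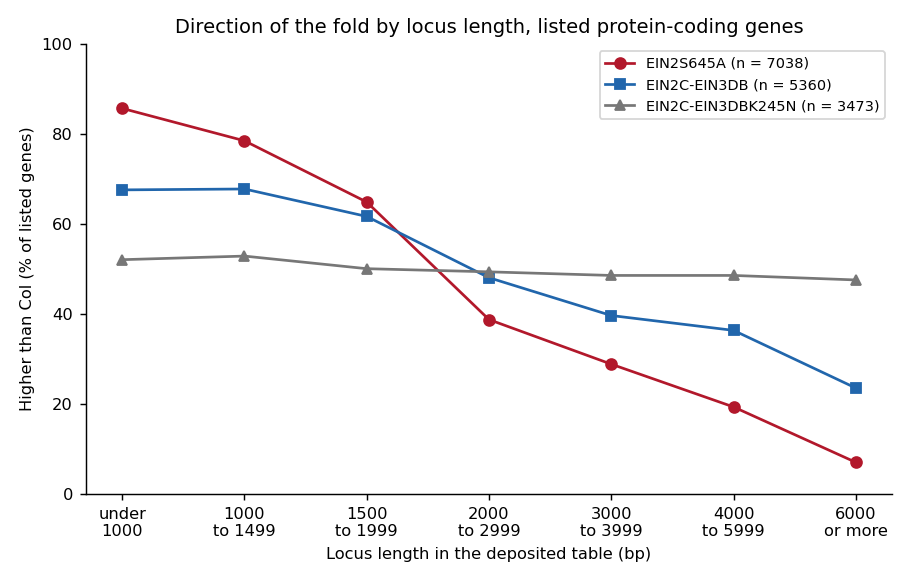
Share of listed protein-coding genes that were higher than in Col (vertical axis, percent) by locus length in base pairs (horizontal axis), for each of the 3 lines. In EIN2S645A the share falls from 85.7% under 1000 bp to 7.1% at 6000 bp or more, in EIN2C-EIN3DB from 67.6% to 23.6%, and in EIN2C-EIN3DBK245N it stays between 47.6% and 52.9%.

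Of the 33 cytosolic ribosomal protein genes on the list examined, 25 were higher and 0 lower, with a median log2 fold of 2.46. They lay in a length band where 78.5% of listed genes were higher. The list need not hold all genes of the class, so its share is not that of the class. RPS15A, a small subunit protein gene, had 1457 FPKM in the line against 117 FPKM in Col, and RPL16B, of the large subunit, had 802 FPKM in the line against 89.4 FPKM in Col, with line values from the authors' deposited table. These genes come in near-identical pairs, and how reads were shared between copies was not given in the sources used here. Of 39 proteasome genes, 20 were higher and 1 lower, where 38.8% of listed genes of like length were higher. The proteasome degrades ubiquitin-tagged proteins. Of its core particle, PAB1 (AT1G16470, chromosome 1, 5622786 to 5625643, TAIR10) had 78.1 FPKM in the line against 3.72 FPKM in Col and PBC1 had 207 FPKM in the line against 18.5 FPKM in Col, with line values from the authors' deposited table. The regulatory particle genes RPN10, RPN13, RPN8A and RPN12A were higher by log2 1.26 to 2.06 in the authors' deposited table. The exception, RPN12B, was listed at 0 in the line. This list had 17 higher and 0 lower genes in EIN2C-EIN3DB, and 19 and 0 in EIN2C-EIN3DBK245N.

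Of 13 genes for cullins and large ubiquitin ligases, 9 were lower and 0 higher, in a band where 7.1% of listed genes were higher. The cullin gene CUL3 had 9.11 FPKM in the line against 36.6 FPKM in Col, and BIG, a very large protein of auxin transport, had 6.59 FPKM in the line against 21.0 FPKM in Col, with line values from the authors' deposited table. All 9 lay between log2 -1.36 and -2.00, so 0 remained past a fold of 2 after centring.

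Genes for RNA polymerase II, which makes mRNA, and for Mediator, which links it to transcription factors, were divided. Of 32 genes, 11 were higher and 7 lower, in a band where 64.9% of listed genes were higher, and after centring 11 and 1. The genes of the 2 largest polymerase subunits were lower, NRPB1 at 9.85 against 33.3 FPKM and NRPB2 at 6.86 against 15.0 FPKM in the authors' deposited table. All 8 listed genes of the smaller subunits were higher. NRPB10 had 46.2 FPKM in the line against 7.25 FPKM in Col, and NRPB11 had 67.5 FPKM in the line against 14.7 FPKM in Col, with line values from the authors' deposited table. Mediator showed the same division, with MED18, MED31 and MED32 at a log2 fold of 1.51 to 1.89 and MED12, MED14 and MED25 at -1.15 to -2.12 in the authors' deposited table. The loci of the higher genes were 903 to 1806 bp long, those of the lower genes 3038 to 8588 bp. The band of 64.9% is that of the median of both together. In the bands of the higher genes 64.9% to 85.7% of listed genes were higher, and in those of the lower genes 7.1% to 28.9%.

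The vacuolar proton pump and histone genes were higher, and chromatin regulator genes lower. Of 19 vacuolar H+-ATPase genes, 10 were higher and 0 lower, and 64.9% of listed genes of like length were higher. AVA-P2, for the membrane ring, had 2093 FPKM in the line against 276 FPKM in Col, and VHA-A, for the catalytic subunit on a 4768 bp locus, had 199.8 FPKM in the line against 71.1 FPKM in Col, with line values from the authors' deposited table. Of 21 core histone genes, 11 were higher and 0 lower, in a band where 78.5% of listed genes were higher. The H2A gene HTA1 had 279 FPKM in the line against 47.9 FPKM in Col and the centromeric H3 gene HTR12 had 7.87 FPKM in the line against 1.11 FPKM in Col, with line values from the authors' deposited table.

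Of 29 genes for chromatin remodelling and silencing, 20 were lower and 2 higher, with a median log2 fold of -2.04. The loci of the listed members were long, and 7.1% of all listed genes of that length were higher. The list's split lay close to the share for that length. The remodelling ATPase gene INO80 had 3.32 FPKM in the line against 26.8 FPKM in Col and its relative BRM had 5.19 FPKM in the line against 25.6 FPKM in Col, with line values from the authors' deposited table. DCL4, a Dicer that makes small interfering RNAs, stood at a log2 fold of -3.59 and the DNA demethylase ROS1 at -2.90 in the authors' deposited table. The higher genes were AGO4, an Argonaute of RNA-directed DNA methylation, at 24.1 against 7.66 FPKM, and the DNA methyltransferase CMT3, at 7.36 against 3.15 FPKM in the authors' deposited table. After centring, 10 members were lower and 2 higher.

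Histone acetylation is the mark the series title links to EIN2. Of 20 genes for enzymes that place or remove it, 6 were lower (30%, against 13.9% of all annotated genes). Another 2 were higher (10%, near the 11.8% of all annotated genes). After centring, 3 were lower and 2 higher. All listed members of the HAC acetyltransferase group were lower. HAC5 had 1.68 FPKM in the line against 9.67 FPKM in Col and HAC12 had 2.57 FPKM in the line against 10.9 FPKM in Col, with line values from the authors' deposited table. HAC4 stood at a log2 fold of -3.34 in the authors' deposited table. Among deacetylase genes, HDA9 stood at a log2 fold of 1.57, HDA15 at 1.07 and HDA14 at -1.59 in the authors' deposited table. HAC and HAF1 loci were between 6162 and 11889 bp long, a range where 7.1% of listed genes were higher. Of 6 large kinases and relatives of the TOR and DNA damage pathways 3 were lower, ATM, TRA1A and TRA1B. TRA1A and TRA1B, scaffold proteins of acetyltransferase complexes on loci of 17943 and 18184 bp, stood at a log2 fold of -2.39 and -2.57 in the authors' deposited table.

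**Figure D4:**
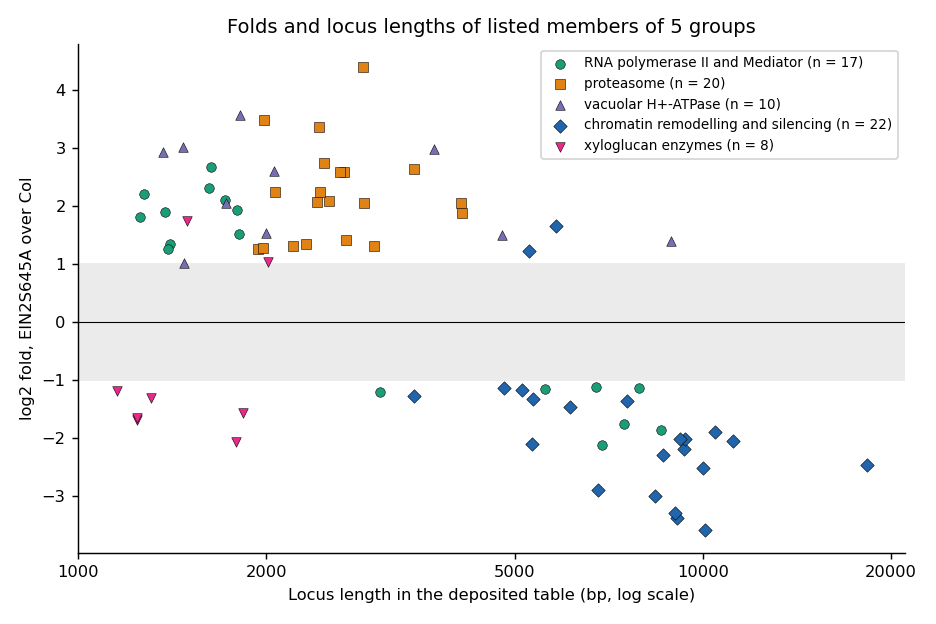
Log2 fold of EIN2S645A over Col (vertical axis) against locus length in the deposited table (horizontal axis, bp, log scale) for listed members with a finite fold of 5 groups. The grey band marks folds under 2, which the table does not hold. RNA polymerase II and Mediator genes divide by length, proteasome genes are higher on loci of 1937 to 4109 bp, and 6 of 8 xyloglucan enzyme genes are lower on loci of 1153 to 1836 bp.

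Families were also grouped by the letters of their gene symbols, with at least 10 members each. There were 177 such families, ranked on these same data, so those described are the extremes of that ranking. Of all annotated genes 11.8% were higher and 13.9% lower. Among the 10 families with the largest share of higher genes, the PRA family, small membrane proteins that bind RAB GTPases, had 12 of 18 higher and 0 lower, led by PRA7 at a log2 fold of 2.35 and PRA8 at 2.31 in the authors' deposited table. Arabinogalactan proteins (AGP), glycoproteins of the cell surface, had 18 of 30 higher and 0 lower. AGP15 alone stood at 9413 FPKM against 999 FPKM, and AGP17 had the largest fold at a log2 fold of 3.62 in the authors' deposited table. TIM genes, for import across the inner mitochondrial membrane, had 6 of 13 higher, with TIM13 at a log2 fold of 3.38 in the authors' deposited table. TOM symbols had 9 of 14 higher, but TOM1, TOM2A and TOM3 are tobamovirus multiplication genes and not part of the mitochondrial TOM complex. Of the complex itself TOM6 and TOM5 had the largest folds, at a log2 fold of 3.53 and 3.04 in the authors' deposited table. Rhomboid-like proteases (RBL) had 7 of 12 higher and actin depolymerizing factors (ADF) 5 of 11, both with 0 lower. The H2A genes (HTA) had 6 of 10 higher and the NRPB family 8 of 15. In the length band of the family's median listed locus, 85.7% of listed genes were higher for AGP and 78.5% for TIM. That share was 64.9% for PRA, TOM, HTA, NRPB and ADF, and 38.8% for RBL.

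Families with the largest share of lower genes were led by FRS, relatives of the light signalling factor FAR1, with 10 of 12 lower. FRS10 and FRS12 had the largest folds, at a log2 fold of -2.42 and -2.02 in the authors' deposited table. ABCC transporters, which load the vacuole, had 9 of 14 lower, and CHR chromatin remodellers 9 of 14. GAUT galacturonosyltransferases of pectin synthesis had 8 of 13 lower, NET actin-binding proteins 7 of 12 and WNK kinases 6 of 10. Of the plastid import receptors, TOC159 stood at a log2 fold of -3.20 and TOC33 at -2.11 in the authors' deposited table. The TOC symbols had 6 of 12 lower, the clock gene TOC1 included. PDE genes, whose mutants have pigment defects, had 7 of 16 lower, and the YTH-domain family ECT, readers of methylated mRNA, 5 of 11. The ACR family had 5 of 11 lower and 1 higher, a direction that turned after centring (1 higher and 0 lower), and GAUT and ECT had 0 genes past a fold of 2 after it. Of the 10 lower FRS genes 1 was past it after centring, and the lower counts were then 4 for ABCC, 3 for CHR, 3 for NET, 2 for WNK, 4 for PDE and 3 for TOC. All genes named ABC, added up, had 35 of 107 lower and 2 higher, ABCG6 at a log2 fold of 1.65 and ABCG16 at 1.07 in the authors' deposited table, where 19.4% of listed genes of like length were higher. After centring, 10 of them were lower and 2 higher. For the families of this paragraph, the share of higher genes in the band of the median listed locus was 7.1% for ABCC. It was 19.4% for CHR, NET and TOC, 28.9% for FRS, GAUT, WNK, ECT and PDE, and 38.8% for ACR.

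Water channels and wall proteins stood at high levels. Of 23 aquaporin genes, 14 were higher and 1 lower, in a length band where 64.9% of listed genes were higher. The tonoplast channel gene TIP1;1 (AT2G36830, chromosome 2, 15445425 to 15446574, TAIR10) had 8002 FPKM in the line against 923 FPKM in Col and TIP2;1 had 10279 FPKM in the line against 1041 FPKM in Col, with line values from the authors' deposited table. The TIP2;1 locus may include a neighbour. PIP2;4, of the plasma membrane, had 785 FPKM in the line against 229 FPKM in Col (line value from the authors' deposited table). The lower gene was BETA-TIP, a channel of seed storage vacuoles, at 15.5 against 35.6 FPKM in the authors' deposited table. Aquaporins had 4 higher and 2 lower genes in EIN2C-EIN3DB, and 14 and 0 in EIN2C-EIN3DBK245N.

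Of 35 expansin genes, which loosen walls, 6 were higher (17.1%, against 11.8% of all annotated genes) and 2 lower, in a band where 64.9% of listed genes were higher, with EXPA6 at 277 against 45.9 FPKM and EXPA1 at 272 against 58.1 FPKM in the authors' deposited table. Of 33 xyloglucan endotransglucosylase genes, 6 were lower (18.2%, against 13.9% of all annotated genes) and 2 higher (6.06%, against 11.8%). The loci of those listed are short, in a band where 78.5% of all listed genes were higher, although after centring 2 were higher and 0 lower. XTH31 had 55.3 FPKM in the line against 233 FPKM in Col and XTH19 had 91.8 FPKM in the line against 229 FPKM in Col, with line values from the authors' deposited table. Of 42 cellulose synthesis genes, 9 were lower (21.4%, against 13.9% of all annotated genes) and 0 higher, in a band where 28.9% of listed genes were higher, and after centring 1 was lower. Among the 9 was the endoglucanase KOR1 at 133 against 389 FPKM in the authors' deposited table. None of the primary-wall CESA genes is among the 9, which are KOR1 and cellulose synthase-like genes. Of 19 pectin methylesterase genes 3 were lower (15.8%, near the 13.9% of all annotated genes) and 1 higher, in a band with 38.8% higher. That 1 was PME17, at a log2 fold of 2.83 in the authors' deposited table.

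Of 118 Aux/IAA, SAUR and GH3 genes, which auxin induces early, 21 were higher (17.8%, against 11.8% of all genes) and 8 lower. Of these 21, SAUR72 had 54.2 FPKM in the line against 4.68 FPKM in Col and IAA17 had 466 FPKM in the line against 171 FPKM in Col, with line values from the authors' deposited table. IAA20 and IAA3 were lower, at a log2 fold of -2.30 and -1.75 in the authors' deposited table. The loci of the members listed in either direction are short, with a median of 872 bp, where 85.7% of all listed genes were higher. SAUR19 and SAUR21, at a log2 fold of 1.59 and 1.64 here, stood at -1.43 and -1.13 in EIN2C-EIN3DB in the authors' deposited tables. Of 23 auxin response factors, the transcription factors that act on these genes, 10 were lower and 0 higher, on loci where 19.4% of listed genes were higher, and after centring 1 was lower. The early auxin genes were then 21 higher and 4 lower. ARF19 stood at a log2 fold of -2.14 and ARF7 at -1.12 in the authors' deposited table. Of 25 transport and synthesis genes 4 were higher (16%, against 11.8% of all annotated genes) and 1 lower, in a band with 38.8% higher, and after centring 4 and 0. The carrier gene LAX1 and the enzyme genes YUC2 and YUC8 were among the higher ones, and YUC3 was lower.

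Other hormone lists held fewer genes, and their counts stand beside 11.8% higher and 13.9% lower of all annotated genes. Of listed genes of like length, 64.9% were higher for the gibberellin and jasmonate lists and 28.9% for the cytokinin and brassinosteroid lists. Of 19 gibberellin genes, 6 were higher and 1 lower, with the DELLA repressor genes RGA at 184 against 87.4 FPKM and GAI at 74.2 against 35.0 FPKM, by the authors' deposited table. The lower gene was GA20OX1, a synthesis enzyme, at a log2 fold of -1.31 in the authors' deposited table. Jasmonate genes were 4 higher and 0 lower of 22, led by the synthesis gene AOS with 117 FPKM in the line against 16.3 FPKM in Col (line value from the authors' deposited table). Of 34 cytokinin genes, 7 were lower and 2 higher, a balance that turned at a fold of at least 4 and after centring (2 higher and 1 lower in both). All listed cytokinin receptors were lower, AHK4 at a log2 fold of -2.61, AHK2 at -1.91 and AHK3 at -1.81, while the degrading enzyme CKX4 was higher at 3.15 in the authors' deposited table. Of 10 brassinosteroid genes 4 were lower and 2 higher, and after centring 0 were lower and 2 higher. The receptor BRI1 had 24.7 FPKM in the line against 96.4 FPKM in Col (line value from the authors' deposited table), and the factor BES1 had 32.5 against 128 FPKM.

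Cold and abscisic acid response genes were higher in 9 of 23 cases (39.1%, against 11.8% of all annotated genes). They were lower in 3 (13%, near the 13.9% of all annotated genes). Of listed genes of like length, 38.8% were higher. RAB18, a dehydrin, had 482 FPKM in the line against 59.5 FPKM in Col, and the cold regulator CBF2 had 14.6 FPKM in the line against 1.64 FPKM in Col, with line values from the authors' deposited table. NCED3, the regulated step of abscisic acid synthesis, stood at a log2 fold of 1.72 and RD29B at 1.89 in the authors' deposited table. The regulators ABI3 and ABI5 and the phosphatase HAB1 were lower, at a log2 fold of -2.11, -1.08 and -1.45 in the authors' deposited table. Of 29 heat shock genes, 10 were lower (34.5%) and 2 higher (6.9%), where 28.9% of listed genes of like length were higher. After centring, 2 were lower and 2 higher. The inducible HSP70B stood at a log2 fold of -3.30 in the authors' deposited table, and HSP101, which dissolves aggregates, at 3.57 against 13.9 FPKM. The higher members, HSP60-2 and HSP60-3A, are chaperonins of the mitochondrion.

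Of 16 immunity genes 5 were lower and 0 higher, in a band where 28.9% of listed genes were higher, and after centring 3 were lower. FLS2 and EFR are receptors of bacterial flagellin and elongation factor Tu. FLS2 had 0.349 FPKM in the line against 18.9 FPKM in Col and EFR had 0.36 FPKM in the line against 2.32 FPKM in Col, with line values from the authors' deposited table. AZI1, a lipid transfer protein of systemic resistance on a 799 bp locus, had 3.62 FPKM in the line against 155 FPKM in Col (line value from the authors' deposited table). NPR1, the salicylate receptor, and the oxidase gene RBOHD both stood at a log2 fold of -1.18 in the authors' deposited table. Of 18 genes for glucosinolates and ER bodies, 5 were lower (27.8%, against 13.9% of all annotated genes) and 3 higher (16.7%, against 11.8%). This turned at a fold of at least 4 (2 higher and 0 lower) and after centring (3 and 0), in a band with 38.8% higher. The ER body glucosidase gene BGLU21 had 57.9 FPKM in the line against 1.68 FPKM in Col (line value from the authors' deposited table), and its relative BGLU23, also named PYK10, 1267 against 3025 FPKM. TGG1, a myrosinase, stood at a log2 fold of -1.36 here, and at 1.29 in EIN2C-EIN3DB and 1.61 in EIN2C-EIN3DBK245N in the authors' deposited tables. None of 13 phenylpropanoid and flavonoid genes was listed in either direction.

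Markers of seed and root hair cells were checked because whole seedlings were sampled. Of 13 seed storage and embryo genes, 6 were higher and 0 lower, in a band where 78.5% of listed genes were higher, with line levels of 9.58 to 168 FPKM in the authors' deposited table. OLEO4, an oil body protein, had 23.6 FPKM in the line against 0.711 FPKM in Col and the cruciferin CRC had 47.8 FPKM in the line against 7.05 FPKM in Col, with line values from the authors' deposited table. CRC stood at a log2 fold of -2.17 in EIN2C-EIN3DB and 3.14 in EIN2C-EIN3DBK245N in the authors' deposited tables. The other 7 seed markers were not listed. Of 15 genes of oil breakdown, 6 were lower (40%, against 13.9% of all annotated genes) and 2 higher (13.3%, near the 11.8% of all annotated genes). In their band 28.9% of listed genes were higher, and after centring 2 were lower and 2 higher. Of the glyoxylate cycle, ICL had 350.0 FPKM in the line against 2324 FPKM in Col and MLS had 49.7 FPKM in the line against 239 FPKM in Col, with line values from the authors' deposited table. PCK1, at the entry to sugar synthesis, stood at a log2 fold of -2.08 in the authors' deposited table. Of 7 root hair markers PRP3 and LRX1 were higher, at 50.4 against 3.79 FPKM and 5.24 against 0.411 FPKM, and RHD2 was lower, by the authors' deposited table. The part of seed or root hair cells in other results was not tested.

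Smaller lists are given by their counts, beside 11.8% higher and 13.9% lower over all annotated genes. Cell cycle genes (8.11% higher, 10.8% lower), tubulins and actins (12.5% and 8.33%) and callose synthases (8.33% lower) lay near or below those shares. Of listed genes of like length, 64.9% were higher for cell cycle genes, 38.8% for tubulin and actin, hypoxia, root hair and reference genes, and 7.1% for kinesins and myosins, callose synthases, nucleoporins and the large kinases. Of 37 cell cycle genes, 4 were lower and 3 higher, which turned after centring (3 higher and 0 lower) and at a q-value of at most 0.001 (1 higher and 0 lower). Kinesins and myosins were 5 lower and 0 higher of 22, tubulins and actins 3 higher and 2 lower of 24, and callose synthases 1 lower of 12. Nucleoporins were 3 lower of 7, and hypoxia genes 2 higher and 1 lower of 10. After centring, 1 kinesin or myosin gene and 0 nucleoporin and callose synthase genes were lower. Of 8 genes often used as stable references 3 were higher, among them GAPC2 at 862 against 129.7 FPKM and EF1A at 1520.0 against 655 FPKM, and the other 5 were not listed, by the authors' deposited table.

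The largest single folds were read among genes with at least 5 FPKM on either side. Of the 20 largest increases, 6 were antenna genes, and 18 had loci under 2000 bp. ELI3-1, an alcohol dehydrogenase induced by elicitors, had 58.4 FPKM in the line against 0.845 FPKM in Col, and ESM1, a modifier of glucosinolate breakdown, had 49.6 FPKM in the line against 0.859 FPKM in Col, with line values from the authors' deposited table. RHS13, a root hair gene, had 54.7 FPKM in the line against 1.21 FPKM in Col and the peptide hormone gene CLE2 had 254 FPKM in the line against 6.31 FPKM in Col, with line values from the authors' deposited table. AT4G33865, which the name table does not describe, had 1825 FPKM in the line against 28.8 FPKM in Col (line value from the authors' deposited table). All 20 were also listed in EIN2C-EIN3DB, of 5552 genes after the same exclusions, and 18 in EIN2C-EIN3DBK245N, of 3604 genes. The share of all 7237 genes listed in those lines was not counted. All folds are over Col, so these overlaps are no measure of agreement between lines. CLE2 stood at a log2 fold of 5.33 here, 1.70 in EIN2C-EIN3DB and 1.99 in EIN2C-EIN3DBK245N in the authors' deposited tables.

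Of the 20 largest decreases, 9 had loci under 2000 bp, and 16 were listed in EIN2C-EIN3DB and 16 in EIN2C-EIN3DBK245N. Here too the overlap of all listed genes was not counted. AT5G57760, with 2.02 FPKM in the line against 127 FPKM in Col (line value from the authors' deposited table), was listed in neither. GRF7, a growth-regulating transcription factor gene, had 3.99 FPKM in the line against 84.0 FPKM in Col, and AT3G45070, a sulfotransferase gene, had 1.65 FPKM in the line against 34.1 FPKM in Col, with line values from the authors' deposited table. HEB1, named for sensitivity to excess boron, stood at a log2 fold of -4.40 here and at -1.72 in EIN2C-EIN3DB in the authors' deposited tables.

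**Figure D5:**
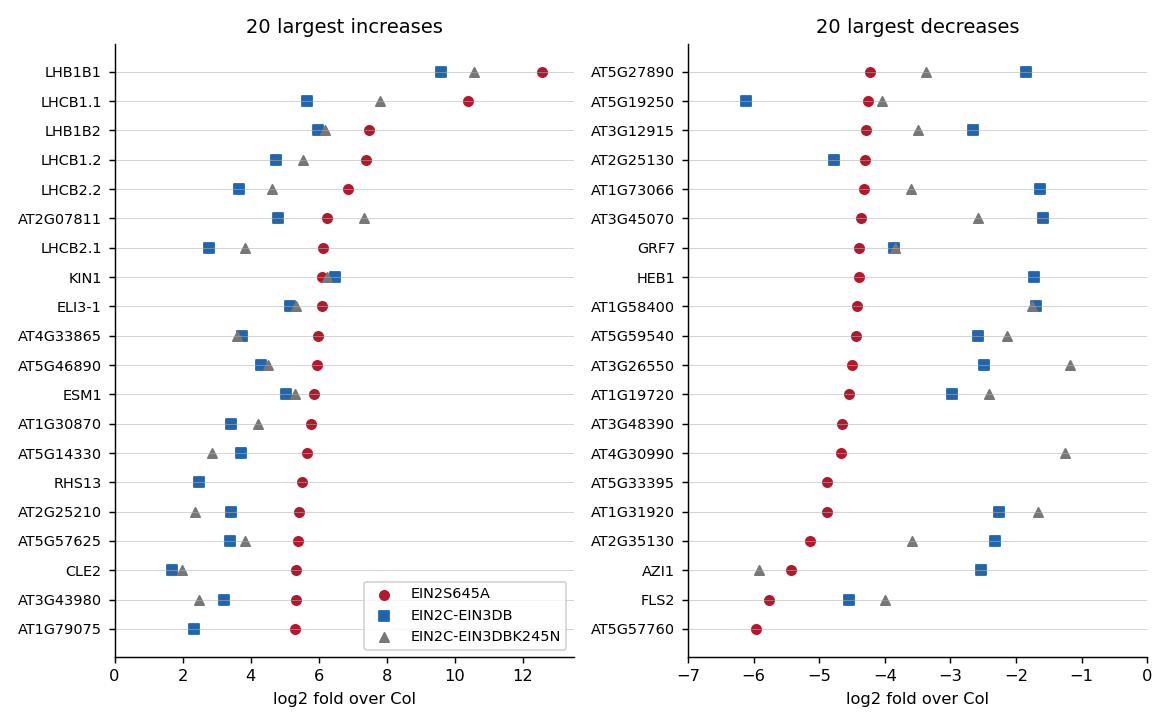
Log2 fold over Col (horizontal axes) of the 20 largest increases (left) and 20 largest decreases (right) of EIN2S645A, with the folds of the same genes in the other lines where listed with a finite fold. Points of 1 row belong to 1 gene, and a missing point is a gene that the table of that line does not list or lists without a finite fold. The fold of EIN2S645A runs from 5.32 to 12.58 on the left and from -5.97 to -4.23 on the right.

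Among the 10 highest line levels of higher genes, 5 were small nucleolar RNAs and 2 were antenna genes. The others were GRP3S, LTP2 and the aquaporin gene with the symbol TIP2. TIP2, at a log2 fold of 1.69 in the authors' deposited table, is not the TIP2;1 described above. GRP3S, a glycine-rich protein gene, had 23019 FPKM in the line against 4116 FPKM in Col, and LTP2, a lipid transfer protein gene, had 22854 FPKM in the line against 8017 FPKM in Col, with line values from the authors' deposited table. Among the 10 highest implied Col levels of lower genes were those of AT4G23670, BGLU23, ICL, UBQ3, MLP28, AT2G37130, JAL22, HSP70-1 and PORB. UBQ3, a polyubiquitin gene, had 726 FPKM in the line against 2091 FPKM in Col, and JAL22, a lectin gene, had 199 FPKM in the line against 1431 FPKM in Col, with line values from the authors' deposited table.

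Classes of genes that make no protein went both ways. All 11 listed small nucleolar RNA genes were higher, each listed at 0 in Col, with 540 to 36579 FPKM in the line in the authors' deposited table. Their loci are 75 to 110 bp, and an FPKM of so short a gene is a poor measure of its abundance. Of 39 listed genes annotated as ncRNA, 37 were higher and 2 lower. Of 29 listed lncRNA genes 8 were higher and 21 lower, and of 48 listed pseudogenes 9 were higher and 39 lower. Their median loci were 904, 2719 and 2915 bp, in this order. Of listed protein-coding genes, 85.7% were higher under 1000 bp and 38.8% from 2000 to 2999 bp. The share of all annotated genes of each class was not counted, and the part of length in these counts was not tested. In all, 92 genes were listed at 0 in Col, 60 of them protein-coding, and 141 were listed at 0 in the line, 119 of them protein-coding. No fold is given for these. NRPB12, a polymerase subunit gene, was among the former, at 779 FPKM in the line in the authors' deposited table, and was listed at 0 in Col in the other lines' tables as well.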

How the data were processed

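RNA-seq of 3 Arabidopsis thaliana lines (2 libraries each) was analysed from 3 tables that the authors deposited, each comparing 1 line with Col. The FPKM values, 1 per gene and line with replicates pooled, were computed by the authors in Cuffdiff 2.2.1 with TAIR10 as the build, as the submitters' processing notes have it. Per the file headers, the deposited tables also carry the log2 fold, p-value and q-value of each gene. They hold only genes past the fold, level and q limits. The RNA aligner, the role of BWA in these values, the use of strand and the handling of reads that map to several copies were not given in the sources used here. The RNA kit is a NEB library kit, per the labels' protocols. Genes tested but not called, and the depth per library, are not known here.

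The EIN2S645A table was used without organelle genes and the insertion on chromosome 2. Folds are the authors' log2 values, turned to line over Col for EIN2C-EIN3DBK245N. Implied Col levels are the line FPKM divided by the fold. The 141 genes at 0 in the line have none, so they are not ranked by Col level and do not pass the 5 FPKM limit. The 3 Col value columns were not used, since Col is not among the samples. Tables were normalized separately, so levels are not compared between lines. Coordinates are the loci of the deposited tables (TAIR10), 1-based. Gene names and types came from a RefSeq table of TAIR10.1, of which no coordinate is printed, and shares are of its 27389 nuclear protein-coding genes outside the insertion. No sequence was at hand, so promoters and proteins are not described. Counts were made with Python 3, pandas and numpy. Simulated data gave back the shares by length and the folds set in them, but the list and family counting used here was not run on them.

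No test between libraries was possible, and lists are described by counts and medians. The 47 lists hold 1174 entries, after 85 entries that shared only a symbol with the list were taken out with results known. The members and lists were chosen with earlier results of these data known. Members were taken by gene symbol, synonym or identifier, so a list need not hold all genes of its class, and its shares are those of the list. Genes were named by a rule: EIN2, EIN3 and EIL1, the 20 largest folds in each direction at a level of at least 5 FPKM, the 10 highest levels in each direction, list members by fold, and the 10 symbol families with the largest shares in each direction. Alternatives were a fold of 4 or more, a level of 5 FPKM or more, organelle and insertion genes kept, a pseudocount of 1 FPKM, folds centred on the median, protein-coding genes only and a q-value of at most 0.001. A few genes and families that the rule names are not reported here. Peak lists of the series were not used.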

Additional observations from a re-analysis of the deposited data

How the results depend on the processing

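Leaving out a replicate was not possible, since the tables hold 1 value per line. No paired analysis was possible because the columns carry no replicates. With a fold limit of 4, 1474 genes were higher and 1214 lower in place of 3318 and 3919, and the median locus of higher genes was 1436.5 bp in place of 1647 bp. At a q-value of at most 0.001, 2293 genes were lower. With folds centred on the median of listed genes, 1054 genes were lower, and 15 lists in place of 26 had more lower than higher members. The smaller counts at a fold of 4 and at the stricter q-value follow from fewer genes passing. Those after centring follow from the shift, which by construction kept all 3318 higher genes. With it, 25 lists in place of 20 had more higher than lower members. Higher minus lower members turned from below to above 0 in a few groups. After centring it was 3 for cell cycle genes, 2 for xyloglucan enzymes, 3 for glucosinolates and ER bodies, 2 for brassinosteroids, 1 for cytokinins and 1 for the ACR family. At a fold of at least 4 it was 2 for glucosinolates and ER bodies and 1 for cytokinins, and at a q-value of at most 0.001 it was 1 for cell cycle genes. Centring left heat shock genes and oil breakdown genes at 0, with as many higher as lower. It also turned the log2 fold of AT4G23670 to 0.095. These turns follow from the shift itself or from fewer genes. A pseudocount of 1 FPKM, organelle and insertion genes kept, and protein-coding genes only turned the direction of none of the lists, families and named genes they were run on. These outcomes are no check of the directions. A pseudocount cannot change the sign of a single gene's fold and can only drop genes from a count. Families hold only nuclear protein-coding genes outside the insertion, so the other settings could not change them, and the list counts stayed the same with them. With loci shared by no other listed gene, an alternative chosen after seeing the data, the median loci were 1631 and 3147.5 bp. Promoter and protein features planned for comparison were not run, because no sequences were at hand.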
